A study of Homo sapiens with 4 samples.

Results

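The transcript described here is FCGBP, the gene of the IgG Fc-binding protein (NCBI gene 8857), and its members are the m5C peaks listed on it in PANC-1, an established line of human pancreatic cancer cells. The PANC-1 cells of all 4 samples had first been exposed to extracellular vesicles of cancer-associated fibroblasts, and the labels name no untreated group, so an effect of the vesicles could not be compared. Total RNA was either immunoprecipitated with an antibody to 5-methylcytosine (2 samples) or sequenced as input (2 samples), and 1 peak list was deposited for each of the 2 replicates. Whether the replicates were separate cultures is not stated in the labels, so a difference between the lists may be technical. The gene was chosen by its peaks, because it holds a crowd of peaks in both lists, with peaks shared between them and along its repeated exons. Its number of peaks, their scores, their spacing and their overlap are therefore given as a description with no test. A member is any peak on the minus strand of chromosome 19 that overlaps 40353963 to 40440533 (hg19), a span of 86.6 kb, by at least 1 bp. Replicate 1 had 14 such peaks of 3177 and replicate 2 had 14 of 5742, which makes 28 of 8919 in all.

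FCGBP encodes a large secreted protein of the mucus layer, best known from intestinal goblet cells, where it is bound up with the gel-forming mucins. Most of the protein consists of repeated von Willebrand factor type D domains, and the exons that encode them are themselves repeated in the gene, with very similar sequence from one copy to the next. The methyl group of m5C is placed on RNA mainly by enzymes of the NSUN family and by TRDMT1, and YBX1 and ALYREF are proteins known to bind m5C in messenger RNA. In m5C MeRIP-seq a peak marks a stretch with more antibody-bound than input reads, at the resolution of RNA fragments and not of single bases.

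Several facts bear on all values below. The files hold no read counts, so depth and enrichment are unknown, and no expression level of FCGBP or of any marker of the cell type can be given. The score of each peak is the authors' own, without a stated unit, and was used within its list only. How reads that match several copies of a repeat were placed is not given in the sources used here. Exons were not analysed here, since no hg19 annotation or genome was used, so the positions below are called sites and not exons. For the same reason no sequence of a peak is printed.

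The FCGBP peaks of the 2 lists lay at 19 separate positions, of which 9 had a peak in both, and many of the positions recurred at fixed distances along the gene. In replicate 1, 10 of the 14 peaks belonged to a pattern repeated 2 or 3 times, and in replicate 2, 11 of 14 did. All 9 overlaps between the replicates lay within this pattern. That is partly set by how it was defined, since a distance had to recur in both lists and 1 replicate 2 peak joined the pattern through its overlap. The pattern consisted of 5 sites, called A to E in the direction of transcription, in 3 blocks, called the 5′, the middle and the 3′ block. FCGBP lies on the minus strand, so the 5′ block has the highest coordinates.

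**Figure D1:**
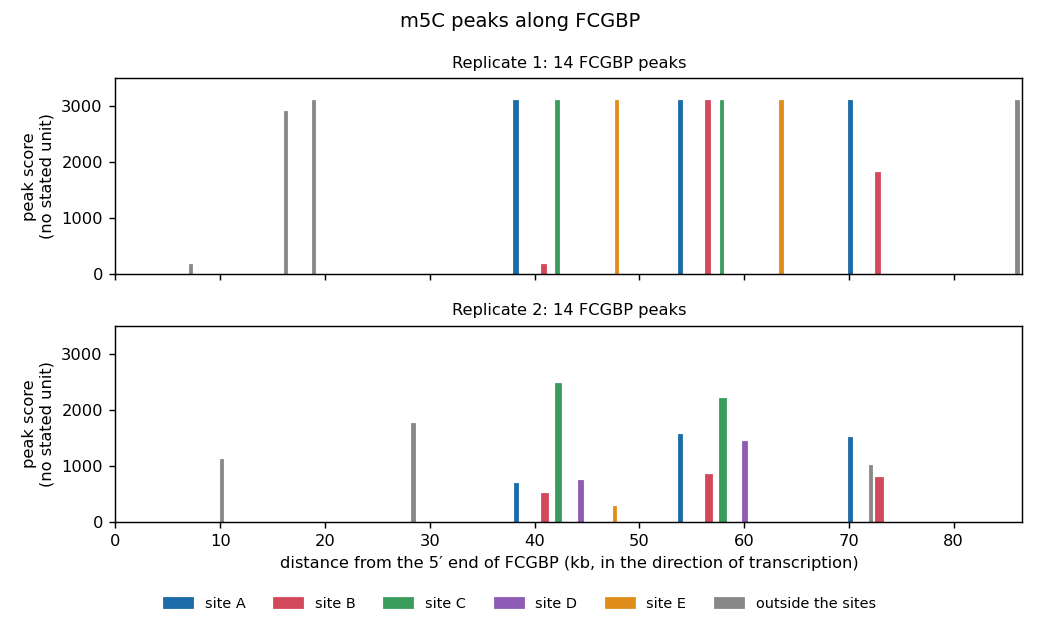
Each bar is 1 FCGBP peak, placed by its distance from the 5′ end of the gene (kb, horizontal axis) and as wide as the peak, with the authors' score as its height (no stated unit, vertical axis) in replicate 1 (upper plot) and replicate 2 (lower plot). Coloured bars are peaks at the sites A to E, which recur between about 38.1 and 72.6 kb, and grey bars are peaks outside these sites, 4 in replicate 1 and 3 in replicate 2.

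The sites were found from distances between peak starts, after the positions had been seen. Each list of 14 peaks gives 91 pairs. A distance counted as recurring when 2 pairs of a list had it within 10 bp, and it was used to define sites when it was at least 10 kb and recurred in both lists. This left 8 pairs of peaks in each replicate, at 3 distances. From the 5′ to the middle block the distance was 15680 to 15690 bp in 4 pairs of replicate 1 and 15684 to 15688 bp in 4 pairs of replicate 2. From the middle to the 3′ block it was 16251 bp in both pairs of replicate 1, and 16251 and 16253 bp in the 2 pairs of replicate 2. The sum of both steps, 31939 and 31941 bp, occurred as a pair each in both lists. Replicate 1 had 2 more recurring distances of at least 10 kb, which were not used because they did not recur in replicate 2. One was 11724 and 11726 bp, between the peaks from 40421505 and 40433229 and between those from 40386463 and 40398189. The other was 35040 and 35042 bp, from 40398189 to 40433229 and from 40386463 to 40421505, and so joins the same 4 peaks. Measured between starts, each block step varied by at most 10 bp between sites and replicates, which the 10 bp tolerance largely set. Between ends, the first step ran from 15613 to 15688 bp and the second from 16251 to 16290 bp. The step to the 3′ block was longer than the step before it at every site that had both.

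The same distances were also counted over the rest of the lists. Over all same-strand pairs of each list, 5 pairs had a distance of 15680 to 15690 bp, and 4 of the 5 were those on FCGBP in either replicate. The other one of replicate 1 lay on chromosome 12 from 49160758, with peaks of 200 and 215 bp, and that of replicate 2 on chromosome 12 from 133237555, with peaks of 196 and 2 bp. At 16251 to 16253 bp and at 31939 to 31941 bp there was no pair outside FCGBP in either list. These counts are a description of the 2 lists, because the windows were the ranges of the FCGBP distances themselves. Windows of a few bp leave little room for other pairs, and no other window was counted for comparison.

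Site A, the first of each block in the direction of transcription, had a peak in all 3 blocks of both replicates. In replicate 1 its peaks ran from 40402151 to 40402471 in the 5′ block, from 40386463 to 40386783 in the middle block and from 40370212 to 40370493 in the 3′ block. Their widths were 321, 321 and 282 bp. From the middle to the 3′ copy the starts were 16251 bp apart but the ends 16290 bp. In replicate 2 the peaks ran from 40402134 to 40402433, from 40386446 to 40386746 and from 40370195 to 40370495, with widths of 300, 301 and 301 bp. The peaks of the 2 replicates were thus almost congruent, with overlaps of 283, 284 and 282 bp. The lower edge of the replicate 1 peak lay 17 bp inside that of replicate 2 in each of the 3 blocks. All 3 peaks of replicate 1 had the score 3100. The replicate 2 scores were 672.82 in the 5′ block, 1554.96 in the middle block and 1495.82 in the 3′ block, so the 5′ copy had the lowest.

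Site B also had a peak in all 3 blocks of both replicates, and its 5′ edge was the same base in both lists each time. Those shared edges were 40399855, 40384167 and 40367914. An edge shared to the base was common in these lists, at 52.2% of all 435 overlapping pairs. How the peak edges were set was not examined, so a shared edge or an equal width, here and at site C, is not read as an extent of methylation. In replicate 1 the peaks began at 40399469, 40383779 and 40367528 and were 387, 389 and 387 bp wide. In replicate 2 they began at 40399239, 40383551 and 40367298 and were each 617 bp wide. These 3 were the only peaks of 617 bp among the 5742 of replicate 2, whereas 387 bp was the width of 4 peaks of replicate 1, of which 2 were at site B. The replicate 2 peak contained the replicate 1 peak in every block and reached 230, 228 and 230 bp farther in the 3′ direction.

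In replicate 1 all peaks at sites A, C and E had the tied score 3100 and site D had no peak. The sites are therefore not ranked by how much their scores varied. Only the replicate 1 scores of site B differed from block to block. They were 154.43 in the 5′ block, 3100 in the middle block and 1805.13 in the 3′ block, and the first of these was the lowest score of any FCGBP peak in that list. In replicate 2 they were 497.57, 826.02 and 777.72. Both lists thus had the lowest score in the 5′ block and the highest in the middle block. The middle copy of replicate 1 has the score that 10 of its 14 FCGBP peaks share, so the size of its difference from the other copies is not read. Each value is 1 peak of 1 list, and a score of unknown scale has no error, so these differences were not tested.

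**Figure D2:**
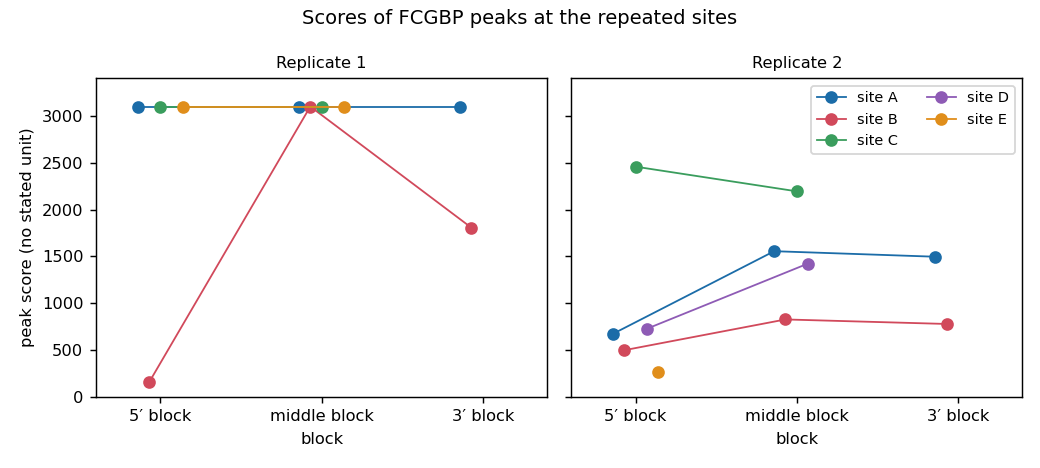
Points are the authors' scores (no stated unit, vertical axis) of the FCGBP peaks at sites A to E in the 5′, middle and 3′ blocks (horizontal axis), with lines joining the copies of a site, for replicate 1 (left) and replicate 2 (right). In replicate 1 only site B leaves the score 3100, at 154.43 and 1805.13, while in replicate 2 the sites lie apart and sites A, B and D have their lowest score in the 5′ block.

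Site C had a peak in the 5′ and the middle block of both replicates. In replicate 1 the peaks ran from 40398189 to 40398451 and from 40382505 to 40382776, with widths of 263 and 272 bp and a score of 3100 each. In replicate 2 they ran from 40397967 to 40398510 and from 40382283 to 40382826. Both were 544 bp wide, and no other peak of replicate 2 had that width. Each contained the replicate 1 peak and began 222 bp below it in both blocks. Their scores, 2457.69 and 2194.21, were the highest of FCGBP in replicate 2 and exceeded those of 98.8% and 98.6% of that list. Here the 5′ copy scored higher than the middle one, unlike at sites A, B and D of the same list.

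Site D was listed in replicate 2 only. Its peaks ran from 40395904 to 40396271 in the 5′ block and from 40380219 to 40380658 in the middle block, with widths of 368 and 440 bp and scores of 726.54 and 1423.20. Their starts were 15685 bp apart, but their ends 15613 bp. Like the 3′ copy of site A in replicate 1, this site thus repeated at one edge only. The nearest listed peaks of replicate 1 were 1.92 and 1.85 kb away.

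Site E was the reverse case, with a peak in both the 5′ and the middle block of replicate 1 but in the 5′ block alone of replicate 2. The replicate 1 peaks ran from 40392527 to 40392791 and from 40376847 to 40377108, were 265 and 262 bp wide and had the score 3100. The replicate 2 peak, from 40392712 to 40392910, met the first of them over 80 bp, the shortest overlap on FCGBP. Its score of 263.71 was the lowest of FCGBP in replicate 2, and it counts as site E through this overlap and not through a distance of its own. At the place in the middle block where a second copy would fall, the nearest listed peak of replicate 2 was 2.99 kb away.

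**Figure D3:**
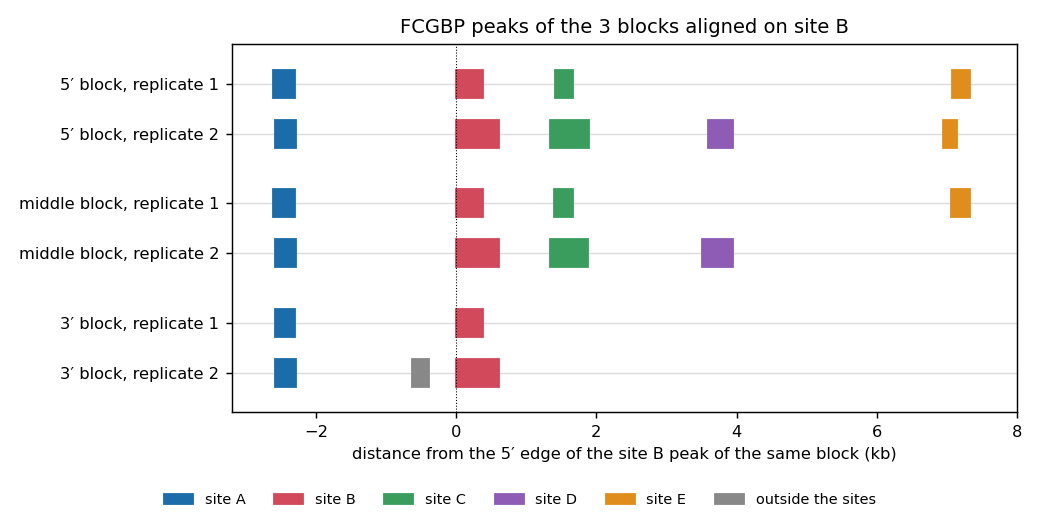
Bars are the FCGBP peaks of each block and replicate (rows), placed by their distance in kb from the 5′ edge of the site B peak of the same block (horizontal axis, direction of transcription to the right). Site B lines up by construction. Site A lines up in all 6 rows and site C in the 4 rows of the 5′ and middle blocks, which the definition by equal distances largely set. The peaks of sites B and C are wider in replicate 2.

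The blocks were not filled alike. In replicate 1 the 5′ and middle blocks had 4 peaks each and the 3′ block 2, and in replicate 2 they had 5, 4 and 2. From the first to the last peak edge, the 5′ block measured 9.95 kb and the middle block 9.94 kb, but the 3′ block 3.20 kb. No peak of either list lay where sites C, D or E would fall in the 3′ block. There the nearest listed peaks of replicate 1 were 1002 bp (site C), 3.12 kb (D) and 6.06 kb (E) away, and those of replicate 2 were 722 bp, 2.89 kb and 6.32 kb away. Without a genome of this build, whether the repeated sequence itself continues there was not examined. The converse case was a replicate 2 peak between sites A and B of the 3′ block, from 40368303 to 40368538 with a score of 986.30, which had no listed counterpart in the other blocks of its list or in replicate 1.

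None of the 7 peaks outside the sites overlapped a peak of the other list. Over the whole lists only 13.6% of replicate 1 and 7.49% of replicate 2 peaks did, so 7 peaks without an overlap are unremarkable. The definition of the sites also took in 1 peak through its overlap. Replicate 1 had 3 of the 7 between the blocks and the 5′ end of the gene and 1 at the 3′ end. The first 3 ran from 40433229 to 40433430 (score 156.06), from 40424132 to 40424331 (2897.76) and from 40421505 to 40421696 (3100). They were 202, 200 and 192 bp wide, the narrowest FCGBP peaks of that list, and 200 bp was the most frequent width of both lists, with 194 and 108 peaks. The last, from 40354261 to 40354532 with a score of 3100, lay 298 bp from the 3′ boundary of the gene and 12.8 kb from the nearest peak of replicate 2. Replicate 2 had 2 peaks 5′ of the blocks. They ran from 40430290 to 40430471, 182 bp wide and the narrowest of its FCGBP peaks, with a score of 1108.78, and from 40411976 to 40412230 with a score of 1745.50. These 2 peaks were 2.76 and 9.27 kb from the nearest peak of replicate 1. The longest stretch of the gene without a peak in either list measured 12.8 kb, from 40354533 to 40367297, and the next ran over 9.50 kb from 40402472 to 40411975.

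The overlap between the replicates was set beside that of the whole lists. On FCGBP, 9 of 14 peaks of replicate 1 (64.3%) overlapped a replicate 2 peak, while over the whole list 13.6% did. Seen from replicate 2 it was again 9 of 14, with 7.49% over its whole list. FCGBP was chosen for its shared peaks, so the higher share is no independent result. Of the 9 pairs, 3 at site B shared an edge to the base, or 3 of 9, and 52.2% of all 435 overlapping pairs of the lists did so. An overlap of at least 50% of both peaks was reached by 7 of the 9 pairs and by 55.9% of all pairs. The exceptions were site C of the 5′ block, where the overlap was 48.3% of the replicate 2 peak, and site E. The median overlap was 283 bp on FCGBP and 144 bp over all pairs. Together the lists covered 6909 bp of the gene at 19 separate positions, and 2627 bp of it (38.0%) lay in a peak of both.

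FCGBP peaks were wide for their lists. The narrowest, median and widest peaks of replicate 1 measured 192, 272 and 389 bp. Those of replicate 2 measured 182, 334.5 and 617 bp, and all 28 were wider than the median of their list, 167 and 141 bp. In replicate 1, 10 of the 14 peaks had the score 3100, a value held by 51.6% of that list, so it orders few of them. In replicate 2 none of the 14 had that score, and 0.627% of that list did. The scores there ran from 263.71 through a median of 1047.54 to 2457.69, and 13 of the 14 were above the list's median of 281.27, the exception being site E. In replicate 2 the median score was 1108.78 for the 3 peaks outside the sites and 826.02 for the 11 at them. In replicate 1 it was 2998.88 for the 4 outside and 3100 for the 10 at them. None of these values was tested, since they come from the lists the gene was chosen on.

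**Figure D4:**
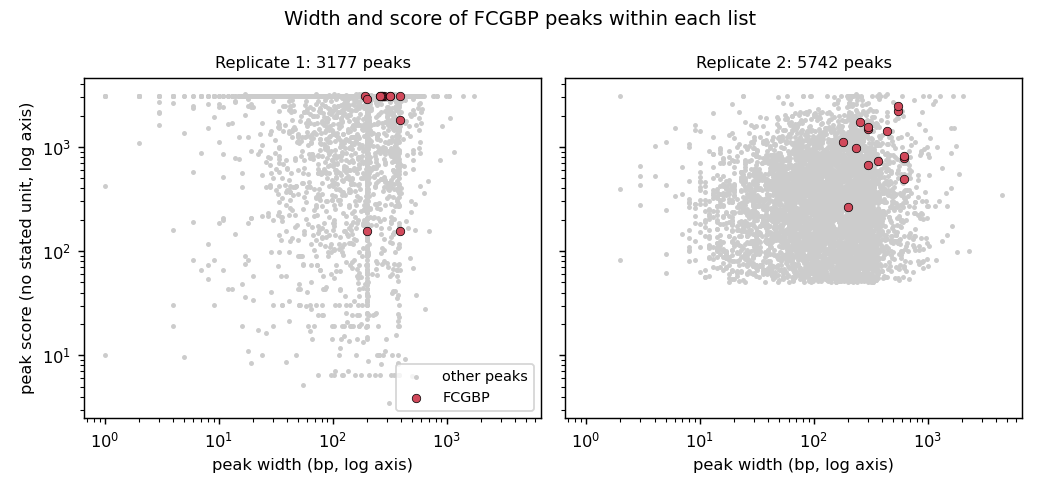
Each grey point is a peak of the list, at its width in bp (horizontal log axis) and the authors' score (vertical log axis, no stated unit), and red points are the 14 FCGBP peaks of replicate 1 (left) and of replicate 2 (right). The red points lie to the right in both plots, at 192 bp or wider and 182 bp or wider, and 10 of those in replicate 1 sit on the line of points at 3100.

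The names of the peaks carry running numbers that increase with position, and not every number is listed. From the first to the last FCGBP peak the numbers spanned 30 in replicate 1 and 34 in replicate 2, of which 14 each were listed FCGBP peaks, or 46.7% and 41.2%. Over each whole list, the share of numbers with a listed peak was no more than 8.85% and 4.63%. FCGBP was chosen for its crowd of listed peaks, and the span begins and ends at such peaks. The higher share is therefore no independent result. The unlisted numbers may belong to either strand and their positions are unknown. In replicate 1, 2 numbers were missing between sites C and E in the 5′ block and 2 in the middle block, and none was missing between B and C in either. Between sites A and B both replicates lacked 1 number in the 5′ block and 2 in the middle block. In the 3′ block replicate 1 lacked 2 there, and replicate 2 lacked 0, its only number in between being the listed peak from 40368303.

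No plus-strand peak lay within FCGBP in either list. How the strand of each listed peak was assigned was not examined, so neither this absence nor a count with either strand is read further. The rule's boundaries did not cut through the crowd of peaks. Beyond the 3′ end, the nearest minus-strand peak was 35.7 kb away in replicate 1 (40318150 to 40318296, score 3100) and 37.2 kb away in replicate 2 (40316328 to 40316726, score 181.71). Beyond the 5′ end it was 121 kb away in replicate 1 (40561327 to 40561483, score 3100) and 288 kb in replicate 2 (40728224 to 40729210, score 994.24). Just inside, the outermost peaks at the 5′ side lay 7.10 and 10.1 kb from the gene's 5′ end, and the one at the 3′ side of replicate 2 lay 13.3 kb from its 3′ end.

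Copies of a repeat that are nearly identical can take each other's reads. The data allow no count of how many of the 21 peaks at sites A to E, 10 in replicate 1 and 11 in replicate 2, arose from reads of their own copy. Methylation of every copy and methylation of fewer copies with reads placed on several cannot be told apart from these lists.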

How the data were processed

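For each replicate number the labels tie 1 immunoprecipitated and 1 input sample to 1 deposited list, so peaks were not made on pooled replicates. Reads were trimmed with cutadapt 1.9.3 and the build was hg19, per the submitters' processing notes, and peak names begin with MACS, per the deposited files. The sources used here do not give the aligner, the thresholds or the treatment of multiply matching reads, all of which could change which copies of a repeat carry a peak. The score per peak is as the authors deposited it, of unstated scale. Starts were read as 0-based and are printed 1-based.

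Overlaps (1 bp or more, same strand) and distances were computed in Python 3.11.15 with pandas 2.3.3 and numpy 2.4.6, checked against bedtools 2.31.1 (435 pairs by both) and tested on simulated data. Distances between starts were equal within 10 bp. No test was run. The gene, the sites and the named peaks (all members were named) were chosen with earlier results of these data known. The NCBI gene number is from RefSeq. The alternatives were other overlap rules, score and width filters, widened bounds, either strand and other distance tolerances.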

Additional observations from a re-analysis of the deposited data

How the results depend on the processing

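The number of FCGBP peaks was 14 in each list with widened bounds, either strand or peaks of 50 bp or more, and 10 and 13 with scores at or above the list median. Of the 9 overlapping peaks, 5 were left in each list with centres within 100 bp, 7 with a 50% reciprocal overlap and 6 with the score filter. The 19 separate positions became 14 without either replicate. Pairs with a recurring distance are not independent, since a step shared by several sites also repeats the distances between those sites. They numbered 25 in replicate 1 and 21 in replicate 2, and fell to 4 in each with exactly equal distances. They numbered 12 and 18 between ends, 20 and 14 between centres, and 27 and 28 with a 50 bp tolerance. Peaks placed at a site by distance alone numbered 10 in each list. Under alternatives added after the data were seen they fell to 6 in each with a 2 bp tolerance, and in replicate 2 to 6 with ends or centres in place of starts, where the count was 8 in replicate 1. These alternatives set a stricter or another edge for equality, and fewer peaks meet them. No paired analysis was possible because each replicate gave 1 list from 1 immunoprecipitated and 1 input sample and no test was run. Depth is unknown, so a peak missing from a list may be below its threshold.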
